A study of Rattus norvegicus with 12 samples.

Results

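Genes of the translation initiation and elongation factors were followed in RNA of rat tumour exosomes and of rat lymph node stroma cells on 12 Illumina expression arrays. The members were all probes whose platform symbol starts with Eif1 to Eif6, Eef1 or Eef2: 52 probes of 51 genes among 22226 probe identifiers. Of these, 51 probes of 50 genes could be read. The identifier of Eef1a1, the main carrier of aminoacyl-tRNA to the ribosome, stood on 4 rows with different values, 1 of them near background and 3 bright on every array, so its row could not be told and Eef1a1 was not used. The gene Eif4g2 has 2 probes, and every other gene has 1. Eif1, Eif4g1 and Eif2ak2 were not analysed here.

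The groups were 3 arrays of kd exosomes, shed by ASML cells in which CD44v was knocked down, 3 arrays of wt exosomes, shed by the ASML line without that knockdown, 2 arrays of B12 cells given kd exosomes for 24 h, 2 arrays of B12 cells given wt exosomes for 24 h and 2 arrays of untreated B12 cells. ASML is a metastasizing rat pancreatic adenocarcinoma line, CD44v are the variant isoforms of the adhesion molecule CD44, and B12 is a line of lymph node stroma. The labels number the arrays within a group but do not say whether they came from separate preparations or cultures, so p-values measure the spread between these arrays. Neither the method of the knockdown nor whether its line is 1 clone is given in the sources used.

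Protein synthesis starts when eIF2, loaded with GTP and the initiator tRNA, joins the small ribosomal subunit with eIF1, eIF3 and eIF5. The eIF4 factors bind the messenger's cap and unwind its leader, eIF5B joins the large subunit, and eIF2B recharges eIF2 with GTP. Kinases that phosphorylate eIF2 under stress turn eIF2 into an inhibitor of eIF2B and so lower initiation. During elongation eEF1A brings in aminoacyl-tRNA, the eEF1B subunits recharge eEF1A, and eEF2 moves the ribosome along. Many of these messengers are abundant in all growing cells, and several are regulated with ribosomal protein genes.

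Exosome arrays were dimmer than cell arrays, with a mean signal over background of 100.1 to 299 intensity units against 505 to 588 in B12 cells. Of all probes, 42.8% to 52.2% were detected on exosome arrays and 53.2% to 54.3% on B12 arrays. Cd44, the targeted gene, stood at 19.4%, 18.2% and 17.3% of the array's mean signal in kd exosomes, against 57.1%, 59.6% and 42.9% in wt exosomes. Array 3 of the kd exosomes stood apart: over all tested probes its log2 values correlated at 0.83 to 0.85 with the other kd arrays and at 0.95 to 0.97 with the wt arrays, although its Cd44 was as low as in the other kd arrays. The B12 arrays split by number within all 3 groups. On the arrays numbered 1 the epithelial marker Tspan8 read 17219.7 to 24797 signal units over background, against 1094 to 5030.5 on those numbered 2, and the stromal gene Cxcl12 read 182 to 305 on number 1 against 29879 to 35258 on number 2. Not every marker split this way. The stromal gene Col3a1 was brighter on number 1 after wt exosomes (6971 against 2872) and after kd exosomes (6952 against 3535). The epithelial genes Spint2 and Prss8 were brighter on number 2 in all 3 groups. Epcam was detected on all exosome arrays and on no B12 array. The leukocyte genes Ptprc and Cd3e were detected on none of the 12. Of the same leukocyte list, Cd79b, Cd68 and Itgam were detected on all 3 wt exosome arrays, and Cd68 on every B12 array. In exosomes the summed signal of 5 erythroid and platelet genes (Hbb, Pf4, Ppbp and others) was 50.1% to 4234% of the array mean in kd arrays and 538% to 1949% in wt arrays, against -2.70% to 3.88% in B12 cells, and its part in the values below was not tested.

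Sequence around the start of transcription is shown for 5 genes that lie among the largest changes between exosomes and cells described below, 4 higher and 1 lower in exosomes. Each window runs from 60 bases before to 20 bases after the RefSeq start in the GRCr8 rat assembly, on the plus strand, and capitals mark a CCGGAAGT box, the core that Ets-family factors bind. The windows lie at chr17:26354187-26354266, chr6:110597919-110597998, chr5:135728782-135728861, chr6:103405820-103405899 and chr4:104363812-104363891, in the order shown.
Eef1e1: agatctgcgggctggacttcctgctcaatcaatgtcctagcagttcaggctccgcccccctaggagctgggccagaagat
Eif2b2: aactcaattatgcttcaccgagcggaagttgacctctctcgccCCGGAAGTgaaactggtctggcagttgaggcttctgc
Eif2b3: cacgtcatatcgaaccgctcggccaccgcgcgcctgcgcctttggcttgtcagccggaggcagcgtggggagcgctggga
Eif2s1: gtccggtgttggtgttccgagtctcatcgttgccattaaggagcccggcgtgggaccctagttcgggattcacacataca
Eif2ak3: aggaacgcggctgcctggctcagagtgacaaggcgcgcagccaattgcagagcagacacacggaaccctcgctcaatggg

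Promoters of 45 of the 51 member genes were found in the RefSeq table, each from 250 bases before to 50 after the start. CCGGAAGT, searched on both strands, was present in 9 of the 45 members (20%), among them Eif2b1, Eif2b2 and Eif3d, and in 4.01% of 27457 promoters. The E box CACGTG, which Myc and related factors bind, was also present in 9 (20%), among them Eif4e, Eif5a and Eef2, against 6.65% of all promoters. The composite site TGATGNAA, recognised by Atf4 dimers, was present in 1 member, Eif2s2 (2.22%), against 3.82% of promoters. A pyrimidine tract CTTTC on the gene's strand between 10 bases before and 20 after the start was present in 3 members (6.67%), against 3.41% of promoters. No match of one motif overlapped another in these promoters. These are letter matches within the windows and no evidence of binding.

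Of the 51 member probes, 41 were detected on all 12 arrays. The 4 detected on none were those of Eef1a2, the muscle and brain form of eEF1A, of Eif1ax and Eif2a, and the other Eif4g2 probe. Probes of Eif2ak3, Eif2ak4, Eif3b, Eif4enif1, Eif5a2 and Eef2kmt were detected on 7 to 10 arrays. Members together made up 1.31% to 1.62% of an exosome array's summed signal, against 1.27% to 1.40% on B12 arrays.

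The level in exosomes was set against that in untreated B12 cells, with all 12 arrays scaled together so that their values have the same distribution (quantile scaling, log2). The cell of origin and the material both differ in this comparison and cannot be told apart, and fewer copies per vesicle or cell cannot be told from a smaller share of vesicles or cells that carry them. Eef1e1, Eif2b2, Eif4e3, Eif2b3 and Eif2s1 were higher in both kinds of exosome, by 2.41-fold to 8.13-fold, and Eif2ak3 and Eif4g2 were lower in both, although Eif2b3 and Eif2s1 in both and Eif4e3 in wt exosomes turned sign when arrays were aligned by their medians. In wt exosomes 12 of 47 tested members were higher than in untreated B12 cells and 2 were lower (limma, adjusted p under 0.05), against 18.2% and 17.1% of all 12231 probes. In kd exosomes 9 of 47 were higher and 5 lower, against 10.8% and 13.4% of all probes. The median difference over members was 0.22 in kd exosomes and 0.40 in wt exosomes, against 0.11 and 0.05 over all probes. Both comparisons share the untreated arrays.

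These directions rest on how exosome and cell arrays are brought to one scale. When arrays were instead aligned by their medians, the median over all probes moved to -0.73 in kd and -1.18 in wt exosomes. Relative to that shift, all 14 members called in kd exosomes and 10 of the 14 called in wt exosomes kept their sign. The exceptions in wt exosomes were Eif2s2, Eif2b4, Eif3m and Eif4a1, and Eif5 in kd exosomes stood at only 0.005. Among all 47 tested members, called or not, 31 kept their sign in kd and 29 in wt exosomes. The matching share over all probes was not computed. Relative to the shift Eef1e1 stood at 1.86 in kd and 1.65 in wt exosomes, Eif2b2 at 2.32 and 2.12, Eif2s1 at 0.49 and 0.29, and Eif2ak3 at -1.92 and -2.13. By limma's test on those median-aligned values, with the shift left in, Eef1e1 was no longer called in kd (1.14, adjusted p = 0.131) or wt exosomes (0.47, adjusted p = 0.467). Eif2b2 was called in kd (1.60, adjusted p = 0.0492) and not in wt exosomes (0.94, adjusted p = 0.171), while Eif2ak3 and Eif4g2 were called lower in both. Cyclic loess gave 7 higher and 8 lower members in kd exosomes, and 8 higher and 7 lower in wt exosomes. Beside these, 26.7% of all probes were called in kd and 32.5% in wt exosomes.

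**Figure D1:**
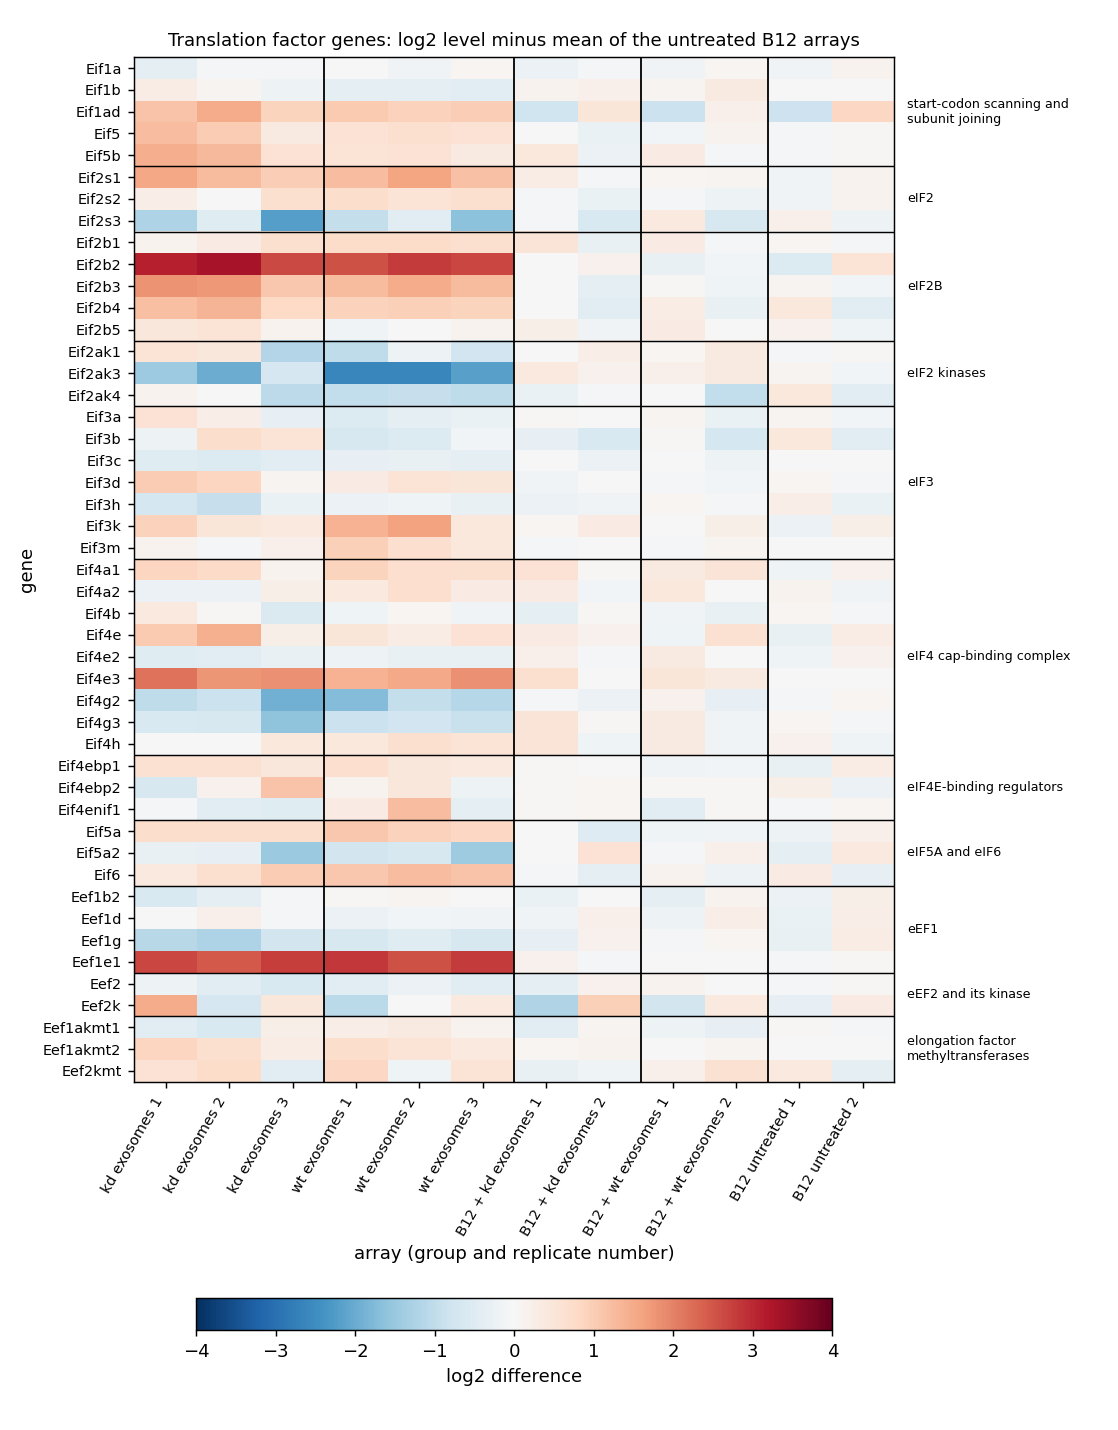
Heat map of the log2 level of 47 tested members (rows, grouped by role) on the 12 arrays (columns), as the difference from the mean of the 2 untreated B12 arrays after joint quantile scaling. Eef1e1 and Eif2b2 are dark red on all 6 exosome arrays and Eif2ak3 is blue there. Aligning the arrays by medians in place of quantiles turns the sign of several paler red rows, such as Eif2s1 and Eif5a.

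Eef1e1, a scaffold protein of the complex that holds several tRNA synthetases, had the clearest difference. Its log2 levels were 10.32, 10.11 and 10.42 in kd exosomes, 10.50, 10.20 and 10.46 in wt exosomes, and 7.63 and 7.70 in untreated B12 cells. The 6 exosome values lie within 0.39 log2 units, and all 6 B12 arrays lie far under them, from 7.58 to 7.83. The difference was 2.62 ± 0.20 (SE) in kd exosomes (6.15-fold, limma adjusted p = 1.53e-05) and 2.73 ± 0.20 in wt exosomes (6.62-fold, adjusted p = 1.21e-05). Without scaling between arrays, its signal over background was 1360, 938 and 307 units in kd exosomes and 365, 521 and 471 in wt exosomes, against 369 and 468 in untreated B12 cells. The unscaled exosome values thus surround those of the cells, on arrays that were dimmer as a whole. As a share of each array's mean signal it took 306% to 455% in kd and 301% to 341% in wt exosomes, against 73.1% and 79.5% in untreated B12 cells.

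Among the 5 subunits of eIF2B, the exchange factor of eIF2, Eif2b2 (beta), Eif2b3 (gamma) and Eif2b4 (delta) were called higher in both kinds of exosome under quantile scaling, of which Eif2b3 and Eif2b4 turned sign in both under median alignment. Eif2b2 had log2 levels of 13.42, 13.61 and 12.94 in kd exosomes, 12.84, 13.10 and 12.97 in wt exosomes, and 9.76 and 10.84 in untreated B12 cells. Although the untreated pair lie more than 1 log2 unit apart, the exosome arrays lie over 2 units above the higher of them. The difference was 3.02 ± 0.29 in kd (8.13-fold, adjusted p = 6.27e-05) and 2.67 ± 0.29 in wt exosomes (6.36-fold, adjusted p = 0.000129). Its signal over background reached 10043, 10034 and 2782 units in kd and 2798, 5754 and 4098 in wt exosomes, against 1730 and 4277 in untreated B12 cells. The 2 brighter kd arrays thus exceeded every B12 array even before scaling.

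Eif2b3 had log2 levels of 10.32, 10.26 and 9.60 in kd exosomes, 9.80, 10.00 and 9.79 in wt exosomes and 8.64 and 8.40 in untreated B12 cells. It was higher by 1.54 ± 0.25 in kd (adjusted p = 0.0016) and by 1.34 ± 0.25 in wt exosomes (adjusted p = 0.00313). No exosome array overlapped any B12 array under quantile scaling, while they overlapped under median alignment. Eif2b4 was higher by 1.12 ± 0.29 in kd (adjusted p = 0.0185) and 0.92 ± 0.29 in wt exosomes (adjusted p = 0.0334). Against untreated array 2 alone its difference was 1.55 in kd and 1.34 in wt exosomes, and against array 1 alone 0.70 and 0.50. Eif2b1 (alpha) and Eif2b5, the catalytic epsilon subunit, were not called: Eif2b1 differed by 0.37 in kd and 0.70 in wt exosomes, and Eif2b5 by 0.38 and -0.01. The subunits of the one complex thus spread over more than 2 log2 units in exosomes relative to cells.

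The trimer eIF2 itself also held unequal differences. Eif2s1 encodes alpha, the subunit that stress kinases phosphorylate. Its levels were 8.94, 8.65 and 8.37 in kd exosomes, 8.63, 8.95 and 8.55 in wt exosomes and 7.25 and 7.52 in untreated B12 cells. It was higher by 1.27 ± 0.27 in kd (adjusted p = 0.00598) and 1.33 ± 0.27 in wt exosomes (adjusted p = 0.00413). All 6 exosome arrays lay above all 6 B12 arrays under quantile scaling and cyclic loess. They overlapped under median alignment and the share of each array's mean signal. Eif2s2 (beta) was higher in wt exosomes by 0.62 ± 0.19 (adjusted p = 0.0256), which lay below the shift of all probes under median alignment, and differed by 0.31 in kd exosomes (adjusted p = 0.238). Eif2s3 (gamma, the GTP-binding subunit) had negative values of -1.30 in kd and -1.01 in wt exosomes that did not pass the test (adjusted p = 0.103 and 0.16).

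Under quantile scaling all 3 eIF2 kinases measured had negative differences in both exosome groups, but only Eif2ak3 passed the test. Eif2ak3 encodes PERK, the kinase that answers unfolded protein in the endoplasmic reticulum. Its levels were 5.75, 5.24 and 6.54 in kd exosomes, 4.60, 4.61 and 5.04 in wt exosomes and 7.32 and 7.11 in untreated B12 cells. It was lower in both, with differences of -1.37 (SE 0.41) in kd exosomes (2.58-fold, adjusted p = 0.0338) and -2.46 (SE 0.41) in wt exosomes (adjusted p = 0.00151). Its probe was detected on all 3 kd arrays but on 1 of 3 wt arrays, at 4.34, 5.57 and 11.4 signal units over background, so the size of the wt difference is uncertain. The kd call was lost under 9 of 21 alternative settings, while the wt call was kept under all 21, with differences from -3.31 under median scaling to -0.87 in the authors' values. Eif2ak4 (GCN2, the sensor of amino acid shortage) was detected on 2 of 3 kd arrays and on no wt exosome array. Its difference in wt exosomes from untreated B12 cells did not pass the test (limma adjusted p = 0.0873). With values below the lowest detected signal raised to it, the wt mean lay 1.57-fold below that of untreated cells. Before that step the difference was -1.39 against untreated array 1 and -0.56 against array 2. In kd exosomes Eif2ak4 differed by -0.30 (limma adjusted p = 0.619). Relative to the shift of all probes under median alignment its sign turned, to 0.22 in kd and 0.14 in wt exosomes. Eif2ak1, the haem-regulated kinase, differed by -0.06 in kd and -0.67 in wt exosomes (adjusted p = 0.938 and 0.303).

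**Figure D2:**
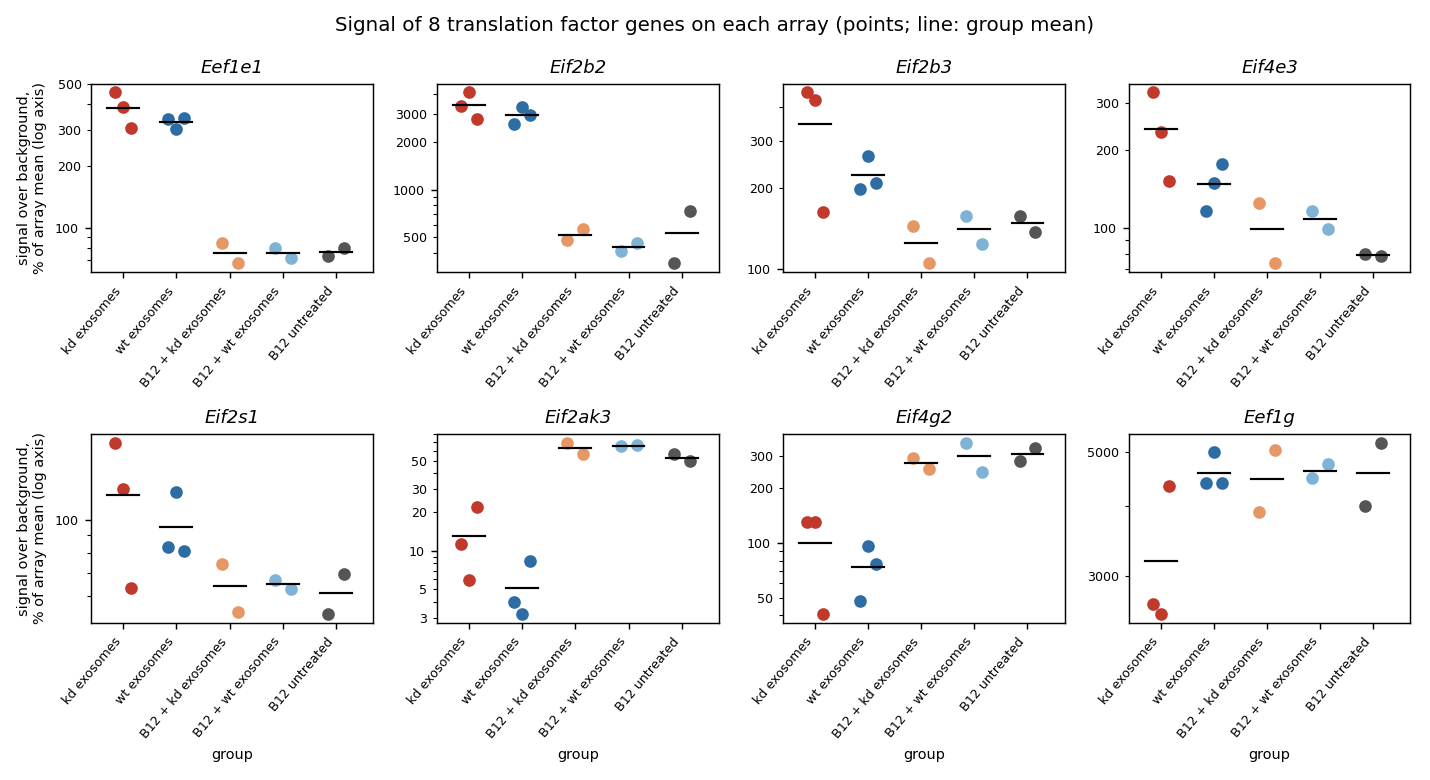
Signal over background of 8 members as a percentage of the array's mean signal (log axis), on each array (points) with group means (lines). Eef1e1 and Eif2b2 lie above every B12 array on all 6 exosome arrays, Eif2ak3 and Eif4g2 lie below, and the kd exosome points of Eif2b3, Eif2s1 and Eef1g are split, with array 3 near the wt arrays or the B12 arrays.

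In the cap-binding complex, Eif4e3, a cap-binding relative of eIF4E, was higher in both kinds of exosome. Its levels were 9.87, 9.47 and 9.52 in kd exosomes, 9.11, 9.22 and 9.55 in wt exosomes and 7.73 and 7.68 in untreated B12 cells. The difference was 1.91 ± 0.26 in kd (3.77-fold, adjusted p = 0.000456) and 1.58 ± 0.26 in wt exosomes (3.00-fold, adjusted p = 0.00124). Eif4a1, the main RNA helicase of initiation, was higher in wt exosomes by 0.73 ± 0.26 (adjusted p = 0.0482), but the call was lost under 13 of 22 alternatives and the sign turned under median alignment. In kd exosomes it differed by 0.59 (adjusted p = 0.121). Eif4e, the cap-binding protein, differed by 0.91 in kd (adjusted p = 0.0948) and 0.45 in wt exosomes (adjusted p = 0.347), and Eif4a2, the second helicase, by -0.08 and 0.47 (adjusted p = 0.821 and 0.126).

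The scaffold-like members went the other way. Eif4g2, which supports initiation without the cap-binding protein, had levels of 8.58, 8.73 and 7.68 in kd exosomes, 7.85, 8.65 and 8.46 in wt exosomes and 9.50 and 9.69 in untreated B12 cells on its detected probe. It was lower in both, with differences of -1.26 (SE 0.35) in kd (adjusted p = 0.0231) and -1.28 (SE 0.35) in wt exosomes (adjusted p = 0.018). Eif4g3, a second scaffold that joins cap-binding protein and helicase, had -0.95 and -0.84 without passing the test (adjusted p = 0.0582 and 0.0681), and all 6 exosome arrays lay below all 6 B12 arrays for both genes. Eif4ebp1, the inhibitor of the cap-binding protein that mTOR controls, differed by 0.55 in kd and 0.50 in wt exosomes (adjusted p = 0.0568 and 0.0601). Its exosome and B12 arrays did not overlap under quantile scaling. They overlapped under cyclic loess, median alignment and the share of each array's mean signal.

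For eIF3, the large complex that bridges messenger and ribosome, 7 members were tested. Eif3m and Eif3k were higher in wt exosomes, by 0.69 ± 0.20 (adjusted p = 0.0237) and 1.15 ± 0.40 (adjusted p = 0.0447), and Eif3m lay below the shift of all probes under median alignment. Eif3k was dim, at 23.4, 38.1 and 16.8 signal units over background in wt exosomes and 15.9 and 36.3 in untreated B12 cells. Eif3c and Eif3h were lower in kd exosomes, with -0.48 (SE 0.15, adjusted p = 0.0345) and -0.63 (SE 0.21, adjusted p = 0.0494). Those kd calls were lost under 12 and 15 of 22 alternatives. Eif3a, the largest core subunit, differed by 0.17 in kd and -0.40 in wt exosomes (adjusted p = 0.616 and 0.21).

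Eif5a, whose protein carries hypusine and helps the ribosome through stalling sequences, was higher in both under quantile scaling and turned sign in both under median alignment. Relative to the shift of all probes under that alignment, Eif5a stood at 0.17 in kd and 0.49 in wt exosomes. Its levels were 12.47, 12.48 and 12.47 in kd exosomes, 12.85, 12.71 and 12.62 in wt exosomes and 11.58 and 11.98 in untreated B12 cells. It was higher by 0.69 ± 0.18 in kd (adjusted p = 0.0177) and by 0.95 ± 0.18 in wt exosomes (adjusted p = 0.00322). Eif6, which keeps the ribosomal subunits apart until they are mature, was higher in wt exosomes by 1.16 ± 0.24 (adjusted p = 0.00451). There its sign turned under median alignment, with 0.48 relative to the shift of all probes. In kd exosomes Eif6 differed by 0.68 (adjusted p = 0.0601). Eif5b and Eif5, which act in subunit joining and as the GTPase activator of eIF2, were higher in kd exosomes by 1.10 ± 0.31 (adjusted p = 0.0246) and 0.87 ± 0.27 (adjusted p = 0.0403). Under median alignment they turned to -0.47 and -0.72, or 0.25 and 0.005 relative to the shift of all probes.

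Apart from Eef1e1, 1 of the tested eEF1 and eEF2 genes was called. Eef1g, the gamma subunit of eEF1B, had levels of 12.97, 12.84 and 13.34 in kd exosomes, 13.43, 13.58 and 13.43 in wt exosomes and 13.78 and 14.38 in untreated B12 cells. It was lower in kd exosomes, with -1.03 (SE 0.22, adjusted p = 0.00625), and had -0.60 in wt exosomes (adjusted p = 0.0538). Eef2, the translocase, differed by -0.43 in kd and -0.39 in wt exosomes (adjusted p = 0.113 for each). Its inhibitory kinase gene Eef2k differed by 0.42 and -0.23, with standard errors of 0.77. Eef1b2 and Eef1d, the other eEF1B subunits, stayed between -0.35 and 0.06.

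Setting all 6 exosome arrays against all 6 B12 arrays, as a description with no test, 14 of 47 members were higher on every exosome array and 6 lower on every one, against 18.4% and 17% of all probes. With each array expressed as a percentage of its own mean signal, the numbers were 6 and 8, against 14% and 19.9%, and with median alignment 0 and 26, against 3.99% and 37.3%. Eef1e1, Eif2b2, Eif2b3, Eif3k and Eif5a were higher on every exosome array under quantile scaling, cyclic loess and the percentage of the mean, and Eif2ak3, Eif3c, Eif4e2, Eif4g2 and Eif4g3 were lower on every one under all 4 scales.

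The comparison of kd with wt exosomes asks whether loss of CD44v in the tumour cell alters the exosome RNA, and was made on the 6 exosome arrays scaled by themselves. No member passed the test: 0 of 43 tested were called by limma, against 0% of all 8699 probes. At an unadjusted p under 0.05 there were 10 members, 3 higher and 7 lower, against 13% of all probes. The 3 kd arrays lay clear of the 3 wt arrays for 13 members, 4 higher and 9 lower, against 17.9% of all probes. The median difference was 0.01 over members and -0.04 over all probes.

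**Figure D3:**
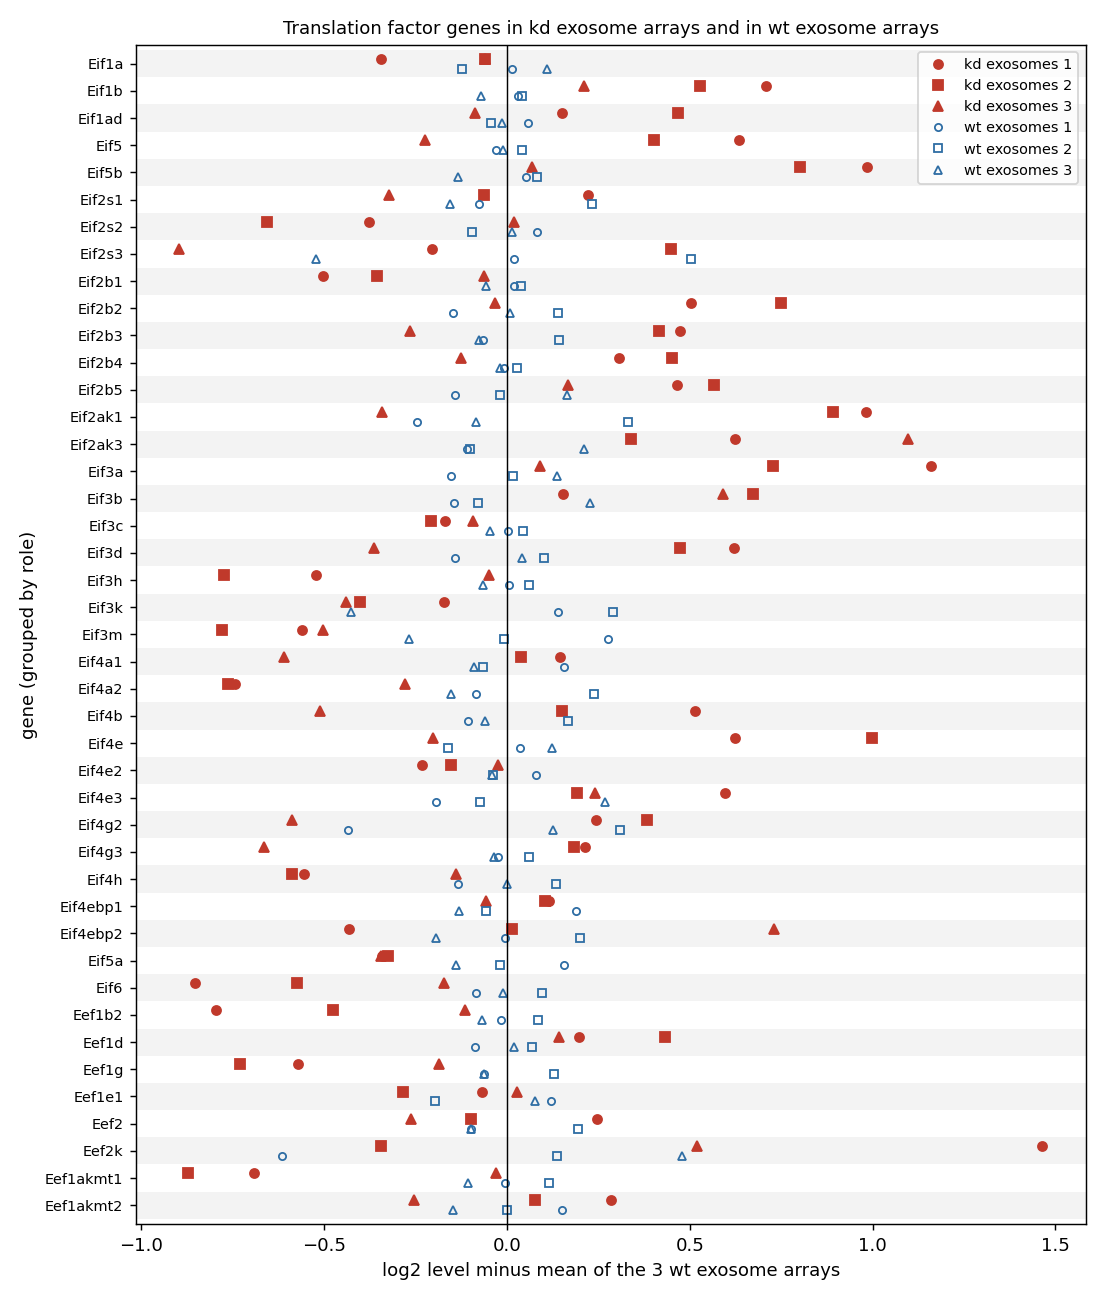
Log2 level of 43 members on each kd exosome array (filled red symbols) and each wt exosome array (open blue symbols), as the difference from the mean of the 3 wt exosome arrays. The triangles of kd array 3 often lie among the wt points, while Eif3m, Eif4a2, Eif5a and Eef1g have all 3 kd arrays to the left and Eif1b, Eif2ak3 and Eef1d all 3 to the right.

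Members with the smallest p among those whose arrays do not overlap are given as values. Eif3m, an eIF3 subunit, read 8.23, 8.02 and 8.29 in kd exosomes and 9.07, 8.79 and 8.53 in wt exosomes, a difference of -0.61 (SE 0.19, limma adjusted p = 0.382). Eif4a2 read 9.28, 9.26 and 9.75 in kd and 9.94, 10.26 and 9.87 in wt exosomes (-0.59, SE 0.19, adjusted p = 0.382). Every kd array was lower for both genes, with kd array 3 the closest to the wt arrays in each. Eif2ak3 read 5.19, 4.91 and 5.67 in kd and 4.46, 4.47 and 4.78 in wt exosomes (0.69, SE 0.24, adjusted p = 0.382). Here kd array 3 was the farthest from the wt arrays, the opposite of Eif4a2.

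Eef1g read 12.20, 12.05 and 12.59 in kd and 12.71, 12.91 and 12.71 in wt exosomes (-0.50, SE 0.17, adjusted p = 0.382). Eif6 read 10.61, 10.89 and 11.29 in kd and 11.37, 11.56 and 11.45 in wt exosomes (-0.53, SE 0.19, adjusted p = 0.382). In these elongation and ribosome-maturation genes array 3 of the kd exosomes again lay nearest to wt. Eif5a was the most even, with 11.56, 11.57 and 11.55 in kd and 12.06, 11.88 and 11.76 in wt exosomes (-0.34, SE 0.13, adjusted p = 0.382). Eif4h, a helper of the helicase, had -0.43, Eif1b 0.48, Eif2b5 0.40 and Eef1d 0.26, each with arrays that do not overlap and an adjusted p of 0.382 to 0.425. Under median alignment, which put the median of all probes at 0.36 and that of members at 0.65, the differences of Eif3m, Eif4a2, Eif6, Eif4h and Eif5a turned positive, with no call.

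Eef1e1, Eif2b2, Eif4e3, Eif2b3 and Eif2s1, the genes most above cells in both kinds of exosome, all had kd and wt arrays that overlap. By limma Eef1e1 had -0.11 ± 0.16 (adjusted p = 0.754), Eif2b2 0.41 ± 0.22 (adjusted p = 0.425) and Eif2s1 -0.05 ± 0.22 (adjusted p = 0.918). Without kd exosome array 3, 23 of 46 members were called, 13 higher and 10 lower, against 42.4% of all probes. In that setting Eif3a was higher by 0.92 and Eif4e by 0.82, and Eif4a2 had -0.75 and Eif6 -0.70. With all 3 kd arrays, Eif3a read 11.98, 11.55 and 10.91 in kd and 10.67, 10.84 and 10.95 in wt exosomes (0.66, SE 0.27, adjusted p = 0.382), so array 3 lay among the wt arrays.

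In B12 cells the question was whether taking up tumour exosomes changed the recipient's own translation genes, and 47 members were tested. No member was called after kd exosomes, after wt exosomes or between the treatments (limma, 0 of 47 each, against 0% of 11631 probes each). At an unadjusted p under 0.05 there were also 0 members in each, against 2.45%, 2.8% and 1.99% of all probes. The median difference over members was 0.01 after kd exosomes, 0.01 after wt exosomes and -0.03 between them. With 2 arrays a group, the precision limits what could be seen: the standard error was 0.19 for Eif1b, 0.26 for Eif4a1 and 0.37 for Eif2b2. These errors are from the fit without array number, so they include the split between numbers 1 and 2. A fit with number as a block also called 0 members in each comparison.

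**Figure D4:**
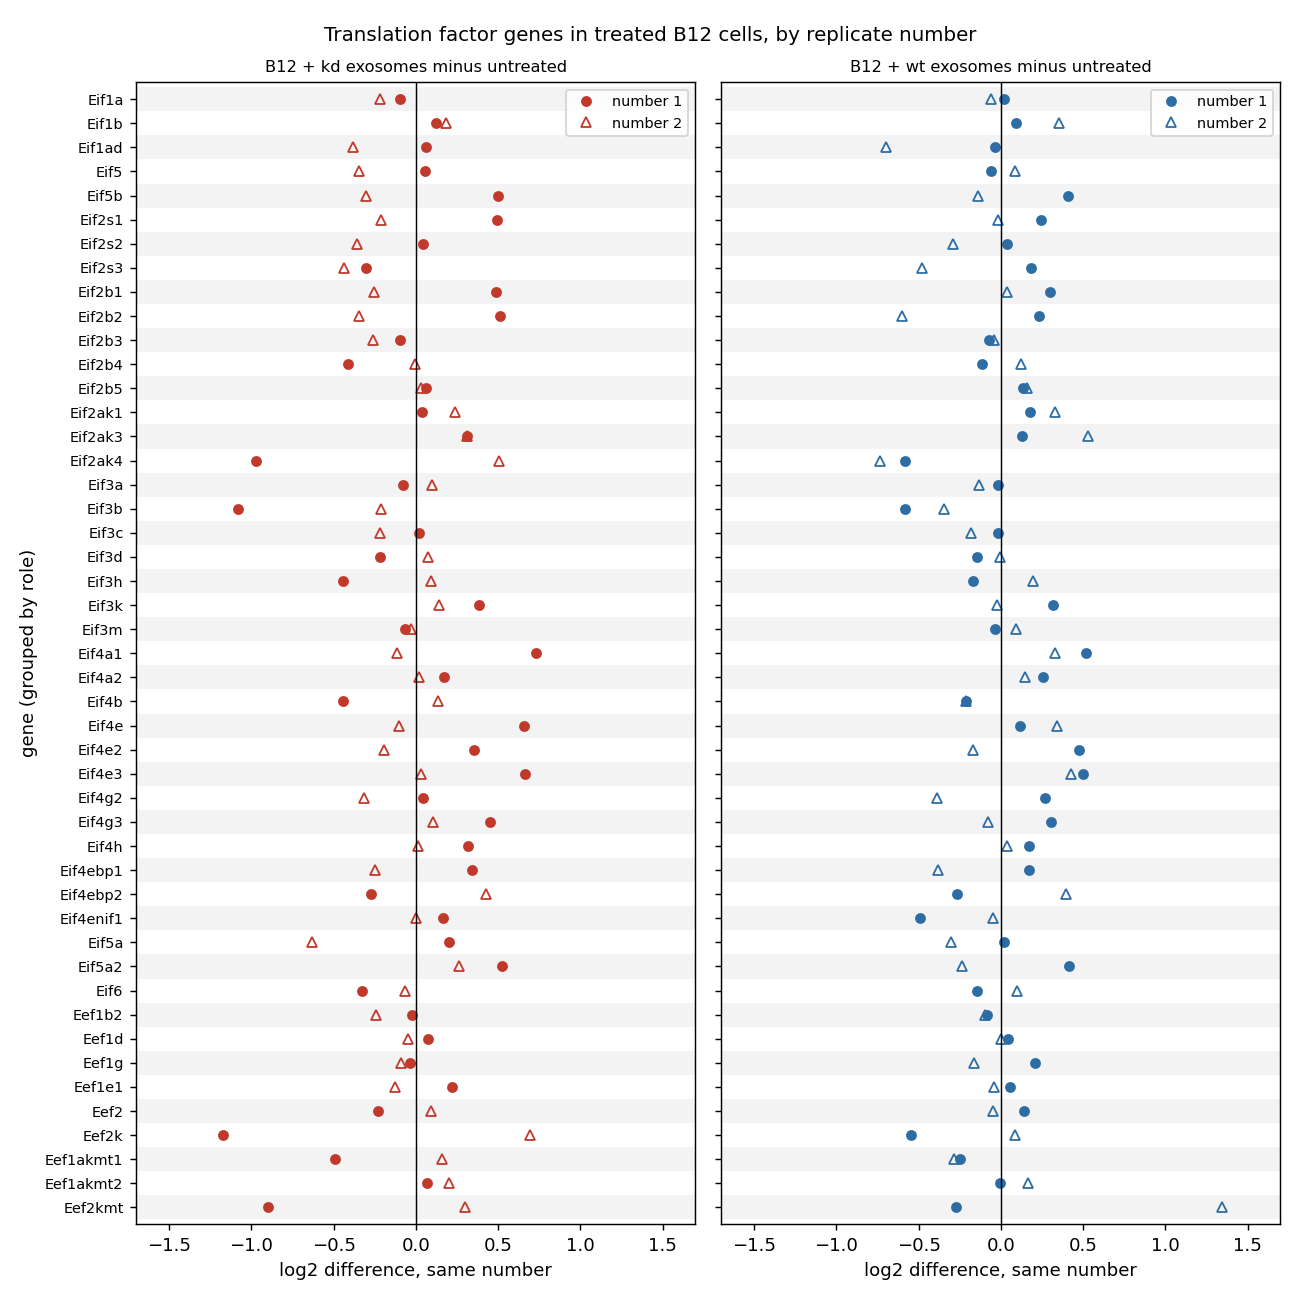
Log2 difference of treated minus untreated B12 cells for 47 members, for the arrays numbered 1 (filled circles) and 2 (open triangles), after kd exosomes (left) and wt exosomes (right). Circles and triangles lie on opposite sides of 0 for many members. Eif2ak3, Eif1b, Eif2b5, Eif2ak1, Eif4a2, Eif4e3 and Eif4h are positive in all 4 pairs. Eif2b3, Eif3b and Eef1b2 are negative in all 4. The kd and wt pairs of a number share their untreated array, and the matching share over all probes was not computed.

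Arrays did not overlap for 4 members after kd exosomes, 3 higher and 1 lower, for 8 after wt exosomes, 5 higher and 3 lower, and for 5 between the treatments, 3 higher and 2 lower, against 22.2%, 24.2% and 20.5% of all probes. Eif2ak3 read 8.67 and 8.43 after kd exosomes, 8.49 and 8.65 after wt exosomes and 8.36 and 8.12 in untreated cells. Its difference was 0.31 (SE 0.26, limma adjusted p = 0.9999) after kd and 0.33 after wt exosomes (adjusted p = 0.9997). Eif1b, a close relative of the start-codon factor eIF1, read 10.84 and 10.90 after kd, 10.81 and 11.07 after wt exosomes and 10.71 and 10.72 in untreated cells. All 4 treated arrays were above both untreated arrays for these genes, and neither difference exceeded the spread by limma's test.

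Eif4a1 read 11.14 and 10.63 after kd exosomes, 10.93 and 11.08 after wt exosomes and 10.41 and 10.75 in untreated cells, a difference of 0.31 and 0.43 (SE 0.26). Eif4e3 read 9.49 and 8.81 after kd, 9.33 and 9.20 after wt exosomes and 8.83 and 8.78 in untreated cells, a difference of 0.35 and 0.46 (SE 0.30). The wt-treated arrays lay above the untreated ones in both genes, while the kd-treated arrays overlapped them. Between the treatments Eif4enif1, an eIF4E transporter, had 0.35 and Eef2kmt, the methyltransferase of eEF2, -0.84 for kd over wt exosomes. Eif4enif1 was dim, at 23.6 and 25.8 signal units over background after kd and 9.16 and 23.9 after wt exosomes. Its difference was 0.66 between the arrays numbered 1 and 0.05 between those numbered 2. The Eef2kmt probe was detected on 1 kd-treated, 2 wt-treated and 1 untreated B12 array. Eef1e1 and Eif2b2, the members highest in exosomes relative to cells, had 0.05 and 0.08 after kd exosomes and 0.01 and -0.18 after wt exosomes.

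Other genes of the pathway were read from 4 lists: translation regulators and termination factors, mitochondrial translation factors, aminoacyl-tRNA synthetases and targets of the integrated stress response. No gene of any list was called in kd against wt exosomes or in the B12 comparisons, where no probe of the array was. Against untreated B12 cells and under quantile scaling, the only scale computed for these lists, 5 of 14 synthetase genes were higher in kd and 6 of 14 in wt exosomes, with 0 lower in either, beside 10.8% higher and 13.4% lower over all probes in kd and 18.2% and 17.1% in wt exosomes. Gars1 was higher by 1.38 in kd and 1.26 in wt exosomes, and Sars1 by 1.04 and 1.49 (adjusted p = 0.0025 to 0.0252). These enzymes charge tRNA with glycine and serine. The list's median was 0.80 in kd and 0.70 in wt exosomes, beside 0.11 and 0.05 over all probes.

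Among 24 regulators and termination factors, 2 were higher and 1 lower in kd exosomes and 7 higher and 2 lower in wt exosomes, to be read against those same shares of all probes. Akt1, a kinase upstream of mTOR, was higher by 0.64 (adjusted p = 0.0343) in kd and 1.00 (adjusted p = 0.00354) in wt exosomes, and Ppp1r15b, which directs the phosphatase of eIF2 alpha, was lower, with -0.52 and -0.43 (adjusted p = 0.0271 and 0.0445). The list's median was -0.10 in kd and 0.18 in wt exosomes, beside 0.11 and 0.05 over all probes. The same shares of all probes stand beside the counts of the remaining lists. Of 10 stress response targets 3 were higher and 1 lower in kd, and 2 higher and 1 lower in wt exosomes, where Phgdh and Shmt2 of serine and glycine synthesis were higher by 1.62 and 1.46 and the amino acid transporter subunit Slc3a2 was lower, with -1.93. Of 6 mitochondrial factors 0 were called in kd and 1, Mtrf1l, was higher in wt exosomes.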

How the data were processed

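RNA was hybridised to single-colour Illumina rat expression arrays. The deposited table holds, per the file headers, a probe intensity and a detection p-value for each array, not normalized, and the deposited value table of the same arrays, also intensity, served as an alternative. No source used here names the scanner software. Deposited p-values behaved as two-sided and were made one-sided. limma 3.58.1 in R 4.3.3 corrected background by normexp with an offset of 16, took log2 and quantile-scaled the 6 exosome arrays, the 6 B12 arrays or all 12 (exosomes against cells). Probes that every array of some group detected (p under 0.05 and above background) were fitted with lmFit and trended eBayes, with Benjamini-Hochberg adjustment over all probes and a threshold of 0.05. A signal over background is the intensity minus the median of probes with p above 0.9. The code was tested on simulated data. Members given array by array were up to 6 in each direction with the largest called change and no overlap between groups, topped up by smallest p where fewer were called. Central factors of each role were always named, others to account for them, and of the partner lists up to 3 genes with the smallest p in a comparison. Members and lists were chosen with earlier results of these data known. Same-numbered B12 arrays deviated together (correlations of 0.77 to 0.80), so a fit with number as a block was added, while exosome numbers did not pair (-0.20 to 0.46). Alternatives covered background, offset, scaling, filters, array weights, the block and left-out arrays. The number of arrays limits the precision.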

Additional observations from a re-analysis of the deposited data

How the results depend on the processing

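The scale between dim exosome and bright cell arrays mattered most. Under median scaling the differences from untreated B12 turned to -0.025 for Eif2b3, -0.23 for Eif2s1, -0.43 for Eif2b4, -0.47 for Eif5b, -0.72 for Eif5 and -0.56 for Eif5a in kd exosomes. In wt exosomes they turned to -0.68 for Eif4e3, -0.98 for Eif2b3, -0.89 for Eif2s1, -0.70 for Eif6, -1.58 for Eif4a1, -0.69 for Eif5a, -1.40 for Eif2b4, -1.23 for Eif2s2 and -1.62 for Eif3m, and among members not called to -1.62 for Eif4ebp1 and -1.69 for Eif4a2. The members' median became -1.0 in kd exosomes, with 1 member higher and 13 lower, beside 30.9% of all probes called. It became -1.61 in wt exosomes, with 27 called, all lower, beside 51.4% of all probes called. In wt exosomes that median was 0.24 with an offset of 50, 0.14 with no background correction, 0.17 with cyclic loess, 0.13 without a filter, 0.23 from the authors' values, 0.27 with array weights and 0.30 with only the 2 groups fitted. Calls there became 22 with array weights and 23 with only the 2 groups, beside 46.3% and 48.2% of all probes called. In kd exosomes they became 5 with only the 2 groups, beside 15.5% of all probes. Leaving out 1 array gave 8 to 19 calls in kd exosomes, beside 14.6% to 30.7% of all probes, and a median of 0.07 to 0.25. There were 9 calls without kd array 1 (20.6% of all probes) or 2 (22.4%). Without untreated array 1 there were 8 (16%), and without untreated array 2 there were 9 (14.6%). In wt exosomes leaving out 1 array gave 8 to 24 calls, beside 18% to 47.4% of all probes, and a median of 0.20 to 0.42. The calls were 8 without wt array 1 (24.6% of all probes), 24 without kd array 3 (47.4%) and 9 without untreated array 2 (18%). Between kd and wt exosomes leaving out 1 array gave 0 to 23 calls, the 23 without kd array 3, beside 42.4% of all probes. Array weights also gave 23, beside 48.1% of all probes, and median scaling moved the median to 0.65. The replicate block gave 15 calls in kd and 16 in wt exosomes against untreated cells, beside 26.1% and 35.2% of all probes. It gave 0 in the exosome and B12 comparisons. The cause of these changes was not tested.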

Other observations

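Within B12 cells, some members followed the split between arrays numbered 1 and 2 that Tspan8 and Cxcl12, though not every marker, showed. They are given here as values with no test. Eif1ad, which carries the fold of initiation factor eIF1A, read 510 signal units over background on array 2 against 156 on array 1 after kd exosomes, 403 against 169 after wt exosomes and 727 against 147 in untreated cells. Eef2k, the kinase that inhibits eEF2, read 571 against 72.1 after kd exosomes, 367 against 139 after wt exosomes and 384 against 177 in untreated cells. Array 2 was brighter than array 1 in all 3 groups for both genes. On the scaled log2 values, the mean difference of array 2 minus array 1 was 1.57 for Eif1ad, 1.60 for Eef2k and 0.80 for Eif5a2, and -0.84 for Eif3b and -0.72 for Eif2s3. Each of these 5 had the same sign in all 3 groups. They are the largest such differences among the members, and the matching share over all probes was not computed. On B12 arrays Eif3b was dim, at 10.7 to 57.6 signal units over background, and Eif5a2 read 33.5 to 117.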
